A study of Homo sapiens with 10 samples.

Results

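The 9 genes described here code for CDK2, the target of the inhibitor used, and for its cyclins and regulators: *CDK2*, *CCNE1*, *CCNE2*, *CCNA1*, *CCNA2*, *CDC25A*, *SKP2*, *CKS1B* and *FBXW7*. They were chosen by name, from among 19970 protein-coding genes of the annotation, and each was followed through the Rb peaks at its promoters, which spanned 2000 bp before to 500 bp after any annotated transcript start. All 9 had a peak in at least 1 of the 8 Rb libraries, and 8 of them, all but *CCNA1*, had a peak in every one. The comparison asked how inhibition of CDK2 changes the chromatin binding of Rb, the retinoblastoma protein, in ovarian cancer cells. Rb was mapped by CUT&RUN, in which an antibody on permeabilised cells tethers a nuclease that releases the DNA beside the bound protein. Cultures of 2 high-grade serous ovarian cancer lines, OVCAR-3 and Kuramochi, were used, each a single established line and not a set of tumours, with the genotype given as WT. Both lines received DMSO, the solvent, or the CDK2 inhibitor INX-315 at 300 nM for 2 days, with 2 biological replicates in each of the 4 Rb groups and 1 IgG2a control library per line from DMSO-treated cells. The lists hold Rb peaks and not RNA, so the identity of the lines could not be checked against marker genes here.

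CDK2 is the kinase that completes the phosphorylation of Rb at the entry into S phase. It is active with E-type cyclins (*CCNE1*, *CCNE2*) at the start of DNA replication and with A-type cyclins (*CCNA2*, and the mainly germline *CCNA1*) during it. CDC25A removes the inhibitory phosphates from CDK2, SKP2 with its cofactor CKS1B (product of *CKS1B*) targets the CDK2 inhibitor p27 for destruction, and FBXW7 is the ubiquitin ligase subunit that targets cyclin E. Unphosphorylated Rb binds E2F factors at promoters and represses their targets, several of the genes above among them, so that the kinase and its partners are themselves encoded by genes that Rb can occupy.

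The sequence under the peaks is shown for *CDK2*, *CCNA2*, *CCNE1*, *SKP2* and *CDC25A*, from hg38, the build of the files, and on the strand of the gene. The sequences of the other members, *CCNE2* and *CKS1B* among them, are not printed. Each window covers 300 bp centred on the median summit over the libraries, except that *CDC25A* is shown from 250 bp before to 50 bp after its MANE Select start (the reference transcript of GENCODE and RefSeq), since its summits lay inside the transcript. Capitals mark matches on either strand to the E2F site, sought as TTTCCCGC, TTTCGCGC, TTTGCCGC and TTTGGCGC (the full string) and as any of these without its first T (the short form, which every full string contains).
CDK2 chr12:55966672-55966971 (+): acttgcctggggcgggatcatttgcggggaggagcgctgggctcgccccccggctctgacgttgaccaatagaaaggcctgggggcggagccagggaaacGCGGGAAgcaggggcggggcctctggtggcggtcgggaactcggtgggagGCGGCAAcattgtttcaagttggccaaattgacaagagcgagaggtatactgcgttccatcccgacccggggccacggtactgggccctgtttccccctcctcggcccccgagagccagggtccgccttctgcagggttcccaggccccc
CCNA2 chr4:121823630-121823929 (−): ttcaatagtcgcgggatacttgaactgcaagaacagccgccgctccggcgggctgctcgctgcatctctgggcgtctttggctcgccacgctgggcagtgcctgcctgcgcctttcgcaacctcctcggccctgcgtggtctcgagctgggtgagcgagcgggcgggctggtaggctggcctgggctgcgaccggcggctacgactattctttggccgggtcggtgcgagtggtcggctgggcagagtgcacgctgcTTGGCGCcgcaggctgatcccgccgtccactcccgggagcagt
CCNE1 chr19:29811729-29812028 (+): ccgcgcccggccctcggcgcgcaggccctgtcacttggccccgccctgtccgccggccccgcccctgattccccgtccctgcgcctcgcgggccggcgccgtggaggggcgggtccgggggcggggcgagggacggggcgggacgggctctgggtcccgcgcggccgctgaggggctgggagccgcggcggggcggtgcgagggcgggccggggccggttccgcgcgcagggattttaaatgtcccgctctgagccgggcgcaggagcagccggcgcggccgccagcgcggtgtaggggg
SKP2 chr5:36151917-36152216 (+): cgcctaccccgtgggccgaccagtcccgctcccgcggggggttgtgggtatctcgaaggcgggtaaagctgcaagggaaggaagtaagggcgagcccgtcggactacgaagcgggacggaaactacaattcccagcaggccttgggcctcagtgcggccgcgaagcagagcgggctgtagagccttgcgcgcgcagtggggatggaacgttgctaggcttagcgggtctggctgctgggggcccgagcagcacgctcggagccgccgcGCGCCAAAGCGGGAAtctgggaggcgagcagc
CDC25A chr3:48188368-48188667 (−): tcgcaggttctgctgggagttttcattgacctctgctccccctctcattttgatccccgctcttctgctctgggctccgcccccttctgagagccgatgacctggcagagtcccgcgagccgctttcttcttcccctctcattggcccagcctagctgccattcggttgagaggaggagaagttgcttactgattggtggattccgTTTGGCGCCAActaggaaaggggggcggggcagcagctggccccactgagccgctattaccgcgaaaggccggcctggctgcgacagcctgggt
The full string occurred in the summit window of *SKP2* alone among the 8 members with a peak in every library, at chr5:36152185-36152192 on the strand opposite to the gene, and 11.9% of the 3185 summit windows of promoter regions called in all libraries held it. The short form occurred in the windows of *CDK2*, *CCNA2* and *SKP2*, against 39.1% of those windows. Around the MANE Select starts, the full string occurred at 1 of the 9 members, *CDC25A*, with its first base 44 bp before the start, where the overlapping copies on both strands form the run in capitals, and in 4.37% of 19016 protein-coding promoters of the same length. The short form occurred at *CDK2*, *CCNE2*, *CCNA1* and *CDC25A*, and in 17.2% of those promoters. The *CCNE1* window held neither form, although Rb summits there were among the highest of OVCAR-3.

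Other promoter elements were sought in the same windows on both strands, where a GC box can share letters with an E2F string. The CCAAT string, bound by NF-Y, lay in the summit windows of *CDK2* and *CKS1B*, and in 32.8% of all windows. Around the MANE Select starts it lay at 6 of the 9 members, and in 36.0% of the 19016 promoters. Those members were *CDK2*, *CCNE2*, *CCNA1*, *CCNA2*, *CDC25A* and *CKS1B*. The summit window of *CKS1B* held 3 CCAAT copies. It also held, at chr1:154974651-154974656, the only match among the members to the cell cycle homology region as sought (TTTGAA or TTCGAA), which occurred in 8.13% of windows. Other spellings were not sought, such as CTTGAA, which the *CCNA2* and *CDK2* windows printed above hold on 1 strand. The GC box (GGGCGG) lay in 6 of 8 member windows and in 81.4% of all windows. Around the starts it lay at 9 of 9 members and in 62.2% of promoters. A match describes letters and not a bound factor.

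Depth is given as the genome-wide mean number of fragments per base, recovered from the values of the peak caller. It ranged from 0.307 to 0.501 over the OVCAR-3 Rb libraries and from 0.216 to 0.445 over those of Kuramochi, and was lowest in the INX-315 libraries labelled replicate 1 in OVCAR-3 and replicate 2 in Kuramochi. The Rb lists held 5221 to 17281 peaks and the IgG2a lists 257 and 195, none of the latter at a member promoter. Heights below are fragments at the summit divided by this mean, so they are multiples of the genome-wide level. Over the 3267 regions with a peak and a recovered value in all 8 Rb libraries, the median height was 28.3 and 33.9 in OVCAR-3 under DMSO, 91.4 and 133 under INX-315, 29.2 and 47.4 in Kuramochi under DMSO, and 101 and 116 with INX-315. The median was thus higher under INX-315 in both lines, by 1.69 on the log2 scale on average, and permuting DMSO and INX-315 within each line gave a two-sided exact p = 0.0556, the smallest that its 36 arrangements allow. Tests over regions used limma with Benjamini-Hochberg adjustment, and with 2 libraries a group their p-values measure the spread between these libraries. Among all fitted regions 97.2% were called higher under INX-315 in OVCAR-3 and 92.5% in Kuramochi, and 0% were called lower in either line, so each call at a member is to be read against these shares. Treatment differences are therefore also given relative to the library median.

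Most members had promoter peaks without the inhibitor. Under DMSO, 8 of 9 members had a promoter peak in both replicates in OVCAR-3 and 8 of 9 in Kuramochi, where 26.8% and 24.8% of all protein-coding genes did. Under INX-315 the counts were 9 of 9 and 8 of 9, beside 55.5% and 53.2% of all genes. A peak in all 8 Rb libraries was found at 8 of 9 members and at 18.8% of protein-coding genes. The exception in each of these counts was *CCNA1*.

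*CCNA1*, the cyclin A gene expressed mainly in testis (ENSG00000133101.10, start at chr13:36432495, plus strand), was at the limit of detection. In OVCAR-3 no peak was called in DMSO replicate 1, and summit heights were 14.0 in DMSO replicate 2 and 26.1 and 28.5 with INX-315, from 7, 8 and 12 fragments. In Kuramochi only INX-315 replicate 1 had a peak, with a height of 29.6 from 12 fragments over a local background of 6.24 times the genome-wide mean. The lowest height called at mean background was 10.1 in the OVCAR-3 DMSO library without a peak, and 11.2, 10.5 and 13.9 in the Kuramochi libraries without one. These values hold for sites at mean background, and where the local background is higher, as at the called Kuramochi peak, a higher summit is needed for a call. *CCNA1* thus did not meet the definition of a gained promoter, a peak in both INX-315 libraries and in neither DMSO library, in either line. The same presence over the 8 libraries was shared by 107 protein-coding genes, *CCNA1* included.

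**Figure D1:**
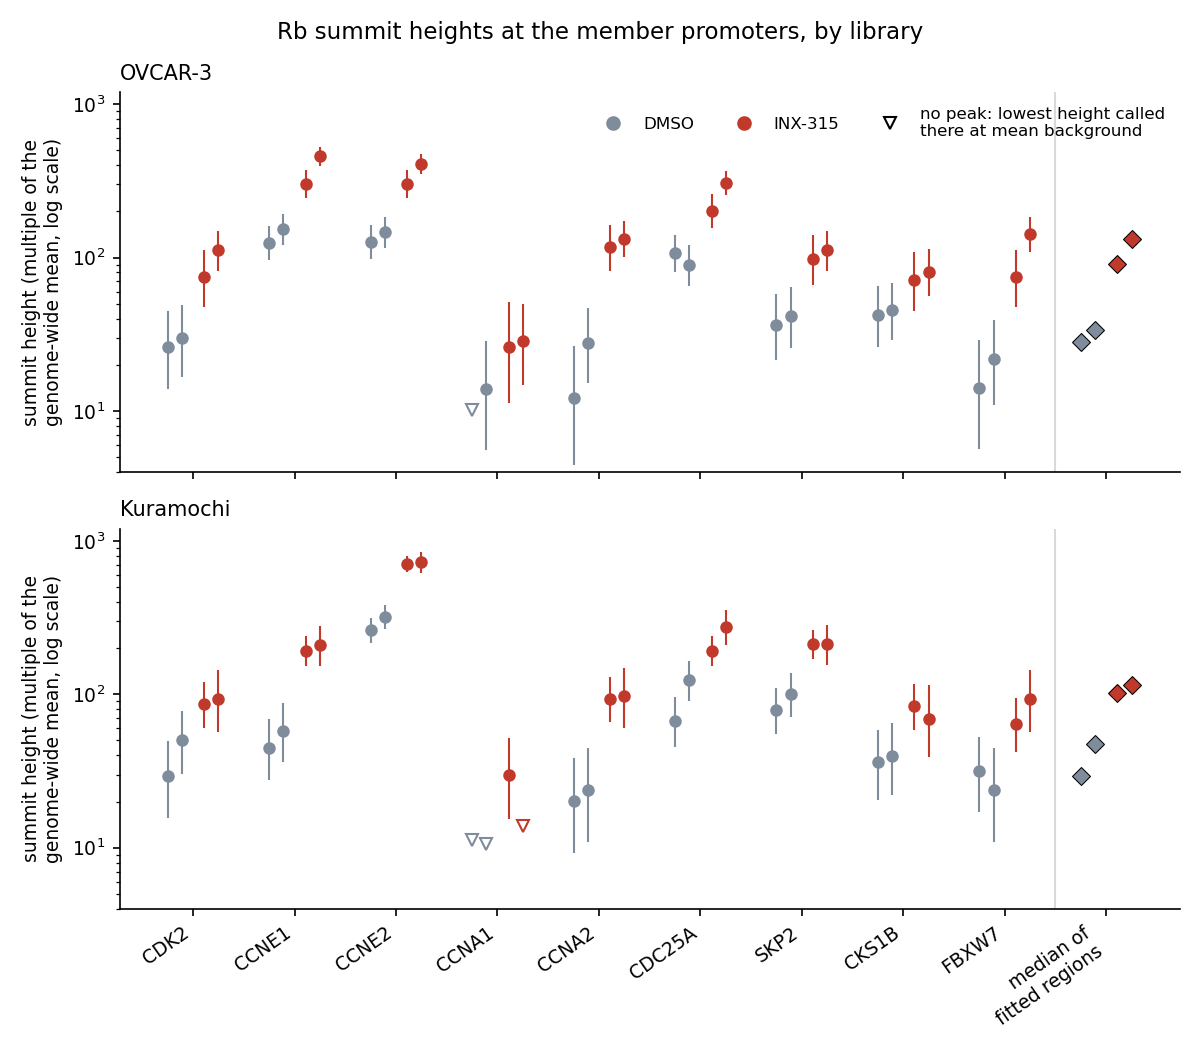
Summit heights at the 9 members in each library of OVCAR-3 (top) and Kuramochi (bottom), as multiples of the genome-wide mean on a log axis; circles are single libraries with exact 95% Poisson intervals, open triangles mark, for a library without a peak, the lowest height it called at mean background, which understates the height needed over a higher local background, and diamonds the median over the 3267 fitted regions. At each of the 8 members with a peak in all libraries, both INX-315 circles lie above both DMSO circles in both lines.

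At the gene of the kinase itself, Rb stood close to the typical region. Summit heights at *CDK2* (ENSG00000123374.11, MANE Select start at chr12:55966830, plus strand) were 26.3 and 29.9 in OVCAR-3 under DMSO and 75.04 and 112 with INX-315, and 29.2 and 50.03 in Kuramochi under DMSO and 86.4 and 92.6 with INX-315. The groups did not overlap in either line, but the 95% Poisson counting intervals of the treatments did in both. The treatment difference was 3.27-fold in OVCAR-3 (log2 1.71 ± 0.43 SE, adjusted p = 0.000135) and 2.34-fold in Kuramochi (log2 1.23 ± 0.43, adjusted p = 0.00612). The *CDK2* difference relative to the library median was −0.12 ± 0.26 in OVCAR-3 (95% interval −0.66 to 0.41) and −0.31 ± 0.26 in Kuramochi (−0.85 to 0.22), neither of which passed the test. The uncentred Kuramochi call was lost without DMSO replicate 1 (adjusted p = 0.106) or INX-315 replicate 2 (adjusted p = 0.0654). The start of *PMEL* lay 94 bp from that of *CDK2* on the opposite strand, so the peak covers both. The *CDK2* height lay between the 32.8th and the 53.8th percentile of the fitted regions in every library.

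The E-type cyclin genes carried the highest summits of the set in OVCAR-3, and *CCNE2* did in Kuramochi. At *CCNE1* (ENSG00000105173.14, MANE Select start at chr19:29811991, plus strand), heights were 125 and 154 in OVCAR-3 under DMSO and 303 and 459 with INX-315. In Kuramochi they were 44.9 and 57.9 under DMSO and 193 and 208 with INX-315. The *CCNE1* height was at or above the 98.1st percentile of fitted regions in each OVCAR-3 library and between the 64.0th and the 86.2nd in Kuramochi.

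The treatment difference at *CCNE1* was 2.69-fold in OVCAR-3 (log2 1.43 ± 0.41, adjusted p = 0.00066) and 3.93-fold in Kuramochi (log2 1.97 ± 0.41, adjusted p = 1.61e-05), and in neither line did the groups overlap. Set against the library median it was −0.40 ± 0.18 in OVCAR-3 (adjusted p = 0.176) and 0.43 ± 0.18 in Kuramochi (adjusted p = 0.15). *CCNE1* thus lay below the typical difference in the first line and above it in the second, by amounts that did not pass the test. The difference between the lines relative to the median was −0.84 ± 0.26 (95% interval −1.36 to −0.31) and did not pass either, with an adjusted p = 0.28. No region of the 3267 passed it, 0% in each direction on either scale.

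At *CCNE2* (ENSG00000175305.18), heights were 127 and 148 in OVCAR-3 under DMSO and 303 and 409 with INX-315, and 261 and 319 in Kuramochi under DMSO and 709 and 722 with INX-315. These were the tallest member summits of Kuramochi and ranked, by the p-value of the peak caller, at or above the 99.4th percentile of all peaks in each of the 8 lists. The *CCNE2* peak was also the widest among the members, at 2356 to 3204 bp, and it covered the start of *NDUFAF6*, 332 bp away on the opposite strand. The treatment difference was 2.57-fold in OVCAR-3 (adjusted p = 0.000318) and 2.48-fold in Kuramochi (adjusted p = 0.000734). *CCNE2* fell by 0.47 ± 0.15 relative to the library median in OVCAR-3 (adjusted p = 0.0353), where it was called in 3 of the 8 fits that left out 1 library. It was not called without OVCAR-3 DMSO replicate 1 (−0.45), OVCAR-3 INX-315 replicate 1 (−0.53) or replicate 2 (−0.41), or either Kuramochi INX-315 library (−0.47), with an adjusted p = 0.0595 to 0.239. Over all regions, 6.24% were called lower and 2.3% higher in OVCAR-3, and 4.04% and 1.96% in Kuramochi, where *CCNE2* differed by −0.23 ± 0.15 and was not called.

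*CCNA2*, the somatic cyclin A gene (ENSG00000145386.11, start at chr4:121823883, minus strand), had low summits under DMSO and, with all libraries, the largest uncentred fold difference of the set in both lines. Its heights were 12.1 and 27.9 in OVCAR-3 under DMSO and 117 and 133 with INX-315, and 20.2 and 23.7 in Kuramochi under DMSO and 93.8 and 97.3 with INX-315. The groups were far apart in both lines, although the first DMSO value of OVCAR-3 came from 6 fragments and a peak of 218 bp. The difference was 6.80-fold in OVCAR-3 (95% interval 3.78 to 12.2, adjusted p = 1.44e-08) and 4.36-fold in Kuramochi (2.43 to 7.85, adjusted p = 1.25e-05). The OVCAR-3 difference was 2.16 on the log2 scale without DMSO replicate 1 and 3.37 without DMSO replicate 2.

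Relative to the library median, *CCNA2* rose by a further 0.93 ± 0.31 on the log2 scale in OVCAR-3 (adjusted p = 0.0492), at the 99.1st percentile of all regions. In Kuramochi the value was 0.58 ± 0.31 (adjusted p = 0.251, 93.4th percentile). Without OVCAR-3 DMSO replicate 1, the library with 6 fragments, the OVCAR-3 value was 0.46 with an adjusted p = 0.455. The call was also lost without either OVCAR-3 INX-315 library (0.75 and 1.11, adjusted p = 0.353 and 0.133) and without either Kuramochi INX-315 library, where the value stayed at 0.93 (adjusted p = 0.0628 and 0.0612). It was thus not called in 5 of the 8 fits that left out 1 library. Without OVCAR-3 DMSO replicate 1 or INX-315 replicate 1 the centred value of *FBXW7* (0.54 and 0.91) was above that of *CCNA2*.

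*CDC25A*, the phosphatase gene with an E2F string just before its start (ENSG00000164045.12, chr3:48188417, minus strand), had high summits in both lines. They were 107 and 89.7 in OVCAR-3 under DMSO and 202 and 307 with INX-315, and 67.4 and 124 in Kuramochi under DMSO and 193 and 273 with INX-315. The groups did not overlap, although in Kuramochi the counting intervals of the higher DMSO and the lower INX-315 library did. The difference was 2.54-fold in OVCAR-3 (adjusted p = 0.00129) and 2.51-fold in Kuramochi (adjusted p = 0.00193). The Kuramochi call was lost without DMSO replicate 1 (adjusted p = 0.053) or INX-315 replicate 2 (adjusted p = 0.0807) of that line. Relative to the library median the differences were −0.49 ± 0.19 (adjusted p = 0.114) and −0.21 ± 0.19 (adjusted p = 0.549), of which the first was called only without OVCAR-3 DMSO replicate 2 (−0.75, adjusted p = 0.0189). Its summits lay 17 to 147 bp inside the transcript in all 8 libraries, the narrowest spread but 1 among the members, at 130 bp.

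The genes of the p27 ligase differed from each other. At *SKP2* (ENSG00000145604.17, start at chr5:36152111, plus strand), heights were 36.4 and 41.9 in OVCAR-3 under DMSO and 97.9 and 112 with INX-315, and 78.6 and 100.1 in Kuramochi under DMSO and 212 and 213 with INX-315. The difference was 2.68-fold in OVCAR-3 (adjusted p = 0.00114) and 2.40-fold in Kuramochi (adjusted p = 0.00446). Relative to the library median these were −0.41 ± 0.22 and −0.28 ± 0.22, and neither passed. The *SKP2* summits lay within 107 bp of each other across the 8 libraries, and the E2F strings printed above lay 121 to 129 bp downstream of their median. The groups did not overlap, but the Kuramochi call was lost without INX-315 replicate 2 (adjusted p = 0.053). The start of *LMBRD2* lay 224 bp away on the opposite strand.

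*CKS1B*, which codes for the cofactor of SKP2 (ENSG00000173207.13, start at chr1:154974681, plus strand), had the smallest difference of the set. Its heights were 42.4 and 45.9 in OVCAR-3 under DMSO and 71.8 and 80.8 with INX-315, and 35.9 and 39.5 in Kuramochi under DMSO and 84.0 and 69.5 with INX-315. The groups did not overlap, but their counting intervals did in both lines. The OVCAR-3 DMSO summits lay at the 75.6th and 70.7th percentile of the fitted regions while the INX-315 summits lay at the 30.7th and 15.2nd. The 1.73-fold difference in OVCAR-3 (95% interval 0.959 to 3.11, adjusted p = 0.0703) did not pass the test, except without either Kuramochi DMSO library (adjusted p = 0.047 and 0.0465). That in Kuramochi did, at 2.03-fold (1.13 to 3.65, adjusted p = 0.0215), but not without Kuramochi DMSO replicate 1, INX-315 replicate 1 or INX-315 replicate 2 (adjusted p = 0.0683, 0.143 and 0.0711).

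Relative to the library median, *CKS1B* fell by 1.04 ± 0.28 on the log2 scale in OVCAR-3 (adjusted p = 0.0134), at the 2.17th percentile of all regions, and differed by −0.52 ± 0.28 in Kuramochi (adjusted p = 0.26). The OVCAR-3 call was lost without DMSO replicate 1 (−0.97, adjusted p = 0.0679) and without INX-315 replicate 2 (−0.86, adjusted p = 0.214), and it was kept in the other 6 fits without 1 library. The start of *SHC1* lay 286 bp from that of *CKS1B* on the opposite strand, so the region lies at both genes. Its local background was 2.47 to 4.48 times the genome-wide mean over the 8 libraries.

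*FBXW7*, the gene of the cyclin E ligase subunit (ENSG00000109670.17, start at chr4:152536092, minus strand), had low DMSO summits in OVCAR-3, as *CCNA2* did. Its heights were 14.1 and 21.9 there under DMSO and 75.04 and 143 with INX-315, and 31.5 and 23.7 in Kuramochi under DMSO and 64.2 and 92.6 with INX-315. The groups did not overlap in either line, but in Kuramochi their counting intervals did. The difference was 5.87-fold in OVCAR-3 (95% interval 3.27 to 10.6, adjusted p = 8.91e-08) and 2.82-fold in Kuramochi (1.57 to 5.08, adjusted p = 0.000973). Centred on the library median these were 0.72 ± 0.32 (adjusted p = 0.162) and −0.04 ± 0.32 (adjusted p = 0.953), and neither passed. The uncentred Kuramochi call was lost without INX-315 replicate 2 (adjusted p = 0.0506). The first OVCAR-3 DMSO value came from 7 fragments. Of 21 annotated transcripts, 11 had a promoter peak in all 8 libraries, and INX-315 replicate 2 of each line also had a further peak at a promoter of the gene.

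Across the set, both INX-315 heights exceeded both DMSO heights at 8 of 8 members in OVCAR-3 and 8 of 8 in Kuramochi, where 99% and 97.3% of all fitted regions did. The counting intervals of the treatments still overlapped at *CDK2* and *CKS1B* in both lines, and at *CDC25A* and *FBXW7* in Kuramochi. The limma test called 7 of 8 members higher in OVCAR-3 and 8 of 8 in Kuramochi. Beside them stood 97.2% and 92.5% of all regions. In Kuramochi, fewer members and also fewer of all regions were called without DMSO replicate 1 or INX-315 replicate 2 of that line. The median member difference was 1.42 on the log2 scale in OVCAR-3, where it was 1.78 over all regions, and 1.32 in Kuramochi, where it was 1.52. Relative to the library median, 2 of 8 members had positive values in each line, beside 1497 of 3267 regions in OVCAR-3 and 1578 in Kuramochi. The other 6 were not the same: *CCNE1* was among them in OVCAR-3 only and *FBXW7* in Kuramochi only, and whether either differed between the lines did not pass its test.

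**Figure D2:**
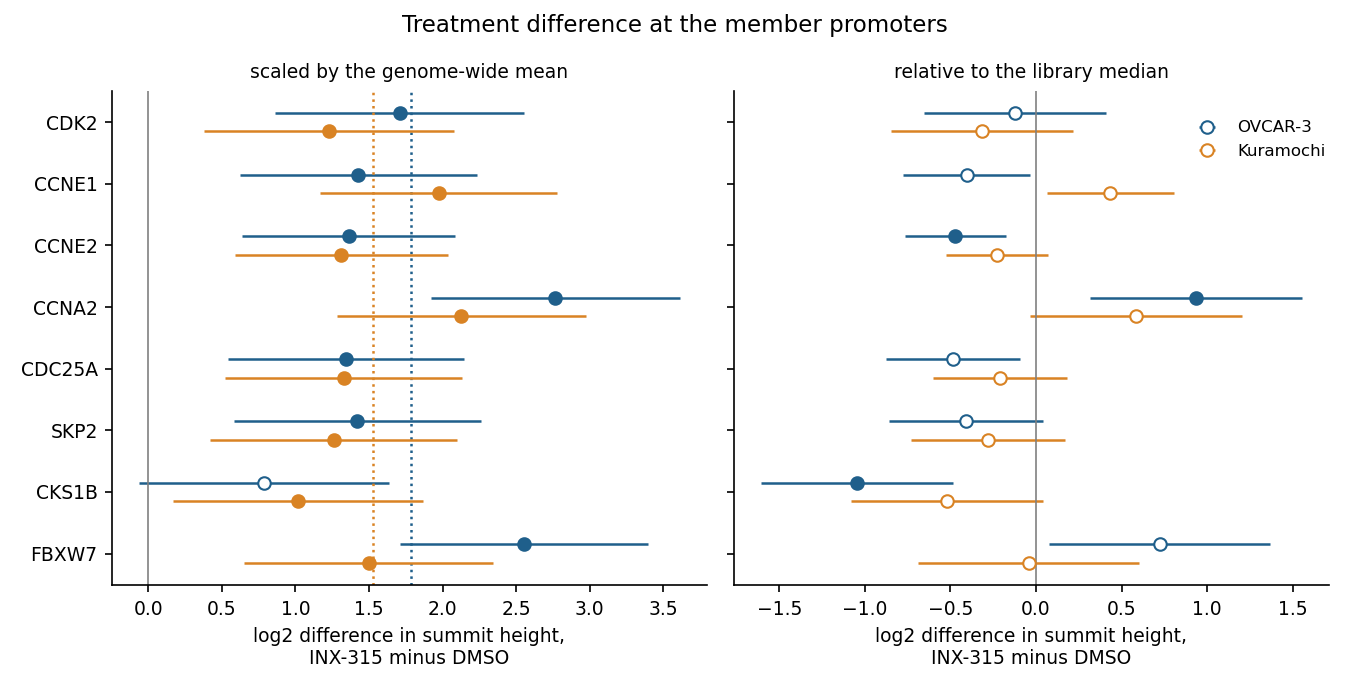
Treatment difference in summit height (INX-315 minus DMSO, log2) with 95% limma intervals at the 8 members with a peak in all libraries, scaled by the genome-wide mean (left) and relative to the library median (right). Filled circles passed an adjusted p of 0.05, and dotted lines give the median of all 3267 regions, 1.78 in OVCAR-3 and 1.52 in Kuramochi. On the right, *CCNA2*, *CCNE2* and *CKS1B* passed in OVCAR-3 and no member passed in Kuramochi.

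Regions were divided into 5 bins of equal size by their mean height over the 8 libraries. The median difference in OVCAR-3 ran from 1.69 in the highest bin to 1.88 in the middle one, and in Kuramochi from 1.40 in the lowest to 1.61 in the bin below the highest. *CCNE1*, *CCNE2*, *CDC25A* and *SKP2* were in the highest bin and *CDK2* and *CKS1B* in the middle one. *CCNA2* and *FBXW7*, the members with the largest differences in OVCAR-3, were in the bin above the lowest.

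Called peaks were wider under INX-315 across the whole lists, with a median width of 505 and 535 bp in OVCAR-3 under DMSO and 746 and 775 bp with INX-315, and of 482 and 559 bp, and 667.5 and 619 bp, in Kuramochi. Against these medians, the *CDK2* peak measured 560 and 721 bp in OVCAR-3 under DMSO and 1163 and 872 bp with INX-315, with summits from 66 bp before to 107 bp after the start. The *SKP2* peak measured 917 and 1129 bp under DMSO in OVCAR-3 and 1706 and 1498 bp with INX-315. Both INX-315 widths were above both DMSO widths in both lines at *CDK2*, *SKP2*, *CCNA2* and *FBXW7*. The same held at *CCNE1* in Kuramochi and at *CKS1B* in OVCAR-3, but not in their other line. At *CDC25A* and *CCNE2* the widths overlapped in both lines. The *CCNE2* peak measured 2619 and 2502 bp under DMSO in OVCAR-3 and 2356 and 2758 bp with INX-315. These widths are a description with no test. How many of all regions had widths separated in this way was not counted. A called width depends on the height above the calling threshold as well as on the extent of binding. Summits lay upstream of the start, at the median over libraries, at 7 of the 9 members, and inside a 5′ UTR exon at *CCNA2* and *CDC25A*.

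**Figure D3:**
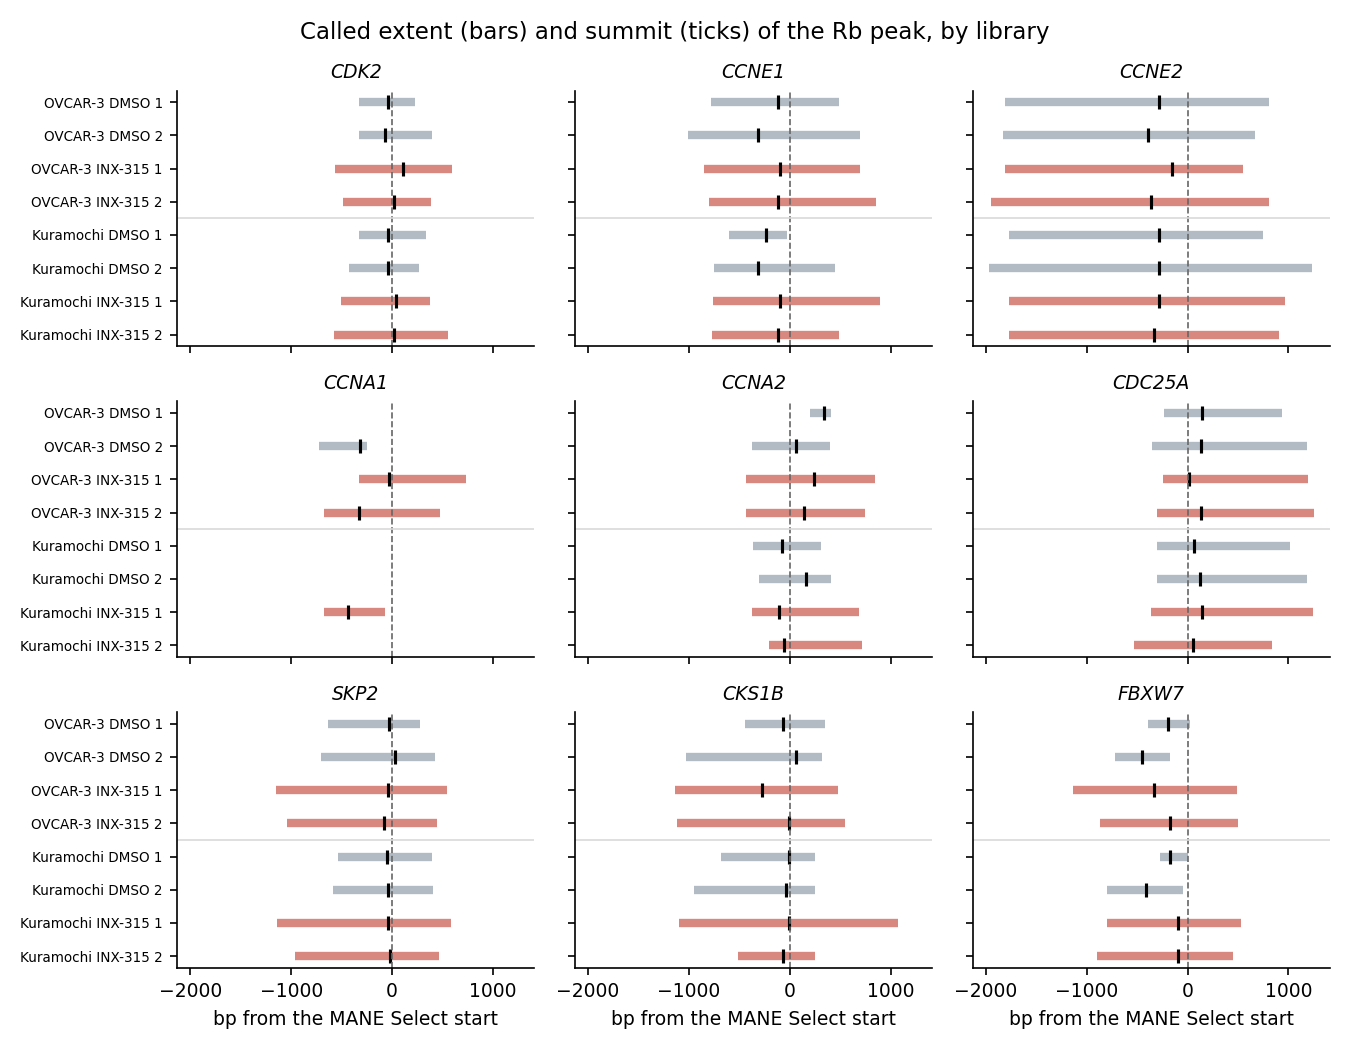
Called extent (bars) and summit (ticks) of the highest promoter peak of each member in each library, in bp from the MANE Select start along the direction of transcription; grey bars are DMSO and red bars INX-315, OVCAR-3 above the line and Kuramochi below it. *CCNE2* has the widest peaks, at 2356 to 3204 bp, and the bars of *CCNA1* are missing in 4 libraries.

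Between the lines under DMSO, *CCNE1* was the only member called. Its summit was 2.72-fold higher in OVCAR-3 (log2 1.44 ± 0.41, adjusted p = 0.0128), in a comparison where 1.25% of regions were called higher and 5.45% lower in OVCAR-3. *CCNE2* and *SKP2* had values of −1.07 ± 0.37 (adjusted p = 0.0519) and −1.18 ± 0.43 (adjusted p = 0.0689), lower in OVCAR-3. All 3 passed relative to the library median, with 1.71 ± 0.18 for *CCNE1*, −0.81 ± 0.15 for *CCNE2* and −0.92 ± 0.22 for *SKP2*, where 13.7% of regions were called higher and 14.1% lower. The other 5 members were not called on either scale. Without either OVCAR-3 DMSO library, or either Kuramochi INX-315 library, the uncentred *CCNE1* difference was 1.30 to 1.59 with an adjusted p = 0.0556 to 0.217. *CCNE2* was called without Kuramochi DMSO replicate 1 (−1.22, adjusted p = 0.0123), and *SKP2* without that library (−1.36, adjusted p = 0.0304) or either OVCAR-3 INX-315 library (−1.18, adjusted p = 0.0495 and 0.0498).

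The local background, which the peak caller took from the IgG2a library of the line, differed in the same direction as the height at these 3 genes. At *CCNE1* it was 6.76 to 6.81 times the genome-wide mean in OVCAR-3 and 2.15 to 2.205 times in Kuramochi. At *SKP2* the OVCAR-3 libraries had 1.09 to 1.12 and those of Kuramochi 3.58 to 4.98, and at *CCNE2* 1.35 to 3.19 and 4.38 to 4.99. On the scale of the authors' fold enrichment, which divides fragments plus 1 by that background plus 1, the *CCNE1* values were 14.5 and 17.7 in OVCAR-3 and 10.7 and 12.7 in Kuramochi under DMSO, and the log2 difference was 0.46 ± 0.48 (adjusted p = 0.838). Those of *CCNE2* and *SKP2* were −0.32 ± 0.44 and −0.11 ± 0.49, and none of the 8 members passed. Each line has 1 IgG2a library, so the background is not replicated, and its part in the differences was not tested further.

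The high background at *CCNE1* extended over its neighbourhood. Within 1 Mb of its start, the median local background over the peaks of the OVCAR-3 libraries was 8.97 times the genome-wide mean, above 99.2% of all peaks of that line, and in Kuramochi it was 2.41. *CCNE1* lies in a chromosome segment that is known to be amplified in OVCAR-3, but copy number was not measured here and its part in these values was not tested. The other fitted promoter regions in that stretch, at *PLEKHF1* and *URI1*, were also higher in OVCAR-3 under DMSO, by 1.70 (adjusted p = 0.00267) and 1.71 (adjusted p = 0.00346) on the log2 scale. On the fold enrichment scale neither passed (0.26 and 1.25, adjusted p = 0.924 and 0.306). At *SKP2* the median background within 1 Mb was 1.12 in OVCAR-3 and 2.50 in Kuramochi, at *CCNE2* 1.18 and 2.19, and at *CDC25A* the order was the reverse, 2.18 and 1.18.

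**Figure D4:**
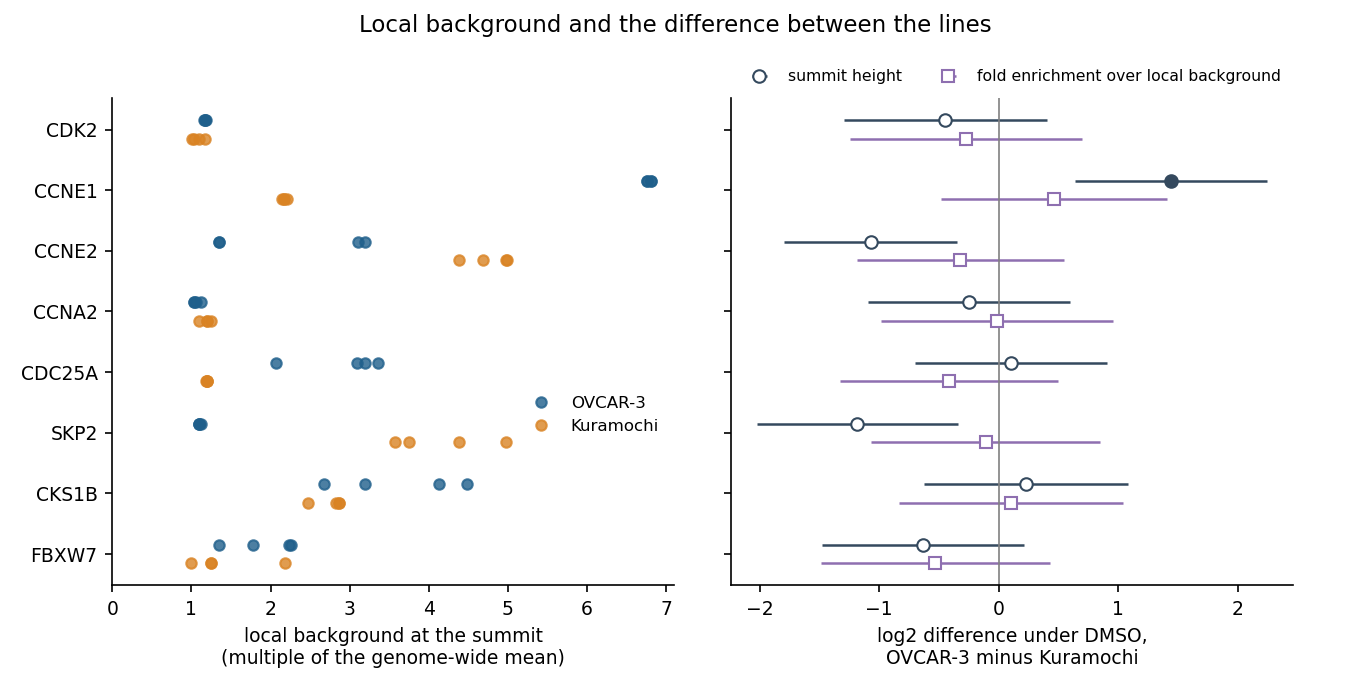
Left, local background at the summit in each of the 4 Rb libraries of a line, as a multiple of the genome-wide mean. Right, log2 difference under DMSO (OVCAR-3 minus Kuramochi) with 95% limma intervals for the summit height and for the authors' fold enrichment over local background, filled where the adjusted p was under 0.05. *CCNE1* has the highest background in OVCAR-3 and is the only filled point.

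On the fold enrichment scale, the treatment difference was called at 7 of 8 members in OVCAR-3, again all but *CKS1B*. In Kuramochi it was called at 4 of 8: *CCNE1*, *CCNE2*, *CCNA2* and *FBXW7*. Beside them, 2793 of all 3267 regions were called higher on that scale in OVCAR-3 and 1914 in Kuramochi.

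By likeness over the 8 libraries, the promoter nearest to *CDK2* was that shared by *MCM8*, *TRMT6* and an unnamed protein-coding gene (ENSG00000286235), at a Euclidean distance of 0.33 in log2 height among 3782 genes. Its heights were 28.3 and 29.9 in OVCAR-3 under DMSO and 65.3 and 102 with INX-315, and 29.2, 47.4, 79.0 and 102 in Kuramochi in the same order. For *CCNE1* the nearest were *CLSTN1* at 0.73, *CNOT10* at 0.79 and *NUP160* at 0.97, on chromosomes 1, 3 and 11. The *CCNE1* pattern thus had no neighbour as close as that of *CDK2*. The distances usual among regions as high as *CCNE1* were not computed. Genes that share a region share its values by construction.

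Around this core, 32 further genes of the pathway were followed: the CDK-activating kinase, the CDK inhibitors, the p27 ligase, the inhibitory kinases WEE1 and PKMYT1, the D-type cyclins and their kinases, other CDC25 and CKS genes, substrates and the E2F and RB1 genes. Of these, 16 had a promoter peak in both OVCAR-3 DMSO libraries and 29 in both INX-315 libraries, and the counts in Kuramochi were 17 and 26, beside shares of all genes that were 26.8% and 55.5% in the first line and 24.8% and 53.2% in the second. With the 5221 top-ranked peaks of every library OVCAR-3 had 16 under DMSO and 13 with INX-315, and Kuramochi 16 and 14. The shares of all genes were then 21.7% and 24.6% for the first line, and 21.8% and 25.03% for the second. With lists of equal length the number of bound genes of the pathway thus did not rise. A fixed number of peaks in every library holds back a general rise, so these lists cannot show whether there was one. In OVCAR-3, 7 of the 10 without a peak under DMSO had one in both INX-315 libraries, beside 27.1% of all protein-coding genes without a peak: *CDKN1A* (the p21 inhibitor), *CDK6* and *CCND1* (G1 kinase and cyclin), *CDK7* and *CCNH* (the CDK-activating kinase), *SKP1* (the ligase adaptor) and *CABLES1* (a CDK2-binding protein). In Kuramochi it was 4 of 10, beside 23.5% of all: *CDKN1A*, *CDKN1C* (the p57 inhibitor), *CDK6* and *CDK2AP1*. None of the 32 was lost in either line, beside 1 and 3 of the 19970 protein-coding genes. With lists of equal length, *CCNB1* was the 1 gene of the 32 gained in OVCAR-3, *CDK2AP2* met the definition of a loss there, and in Kuramochi 0 of the 32 met either definition. Of all genes without a peak under DMSO, 2.98% were gained in each line on those lists.

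The 15 of these genes with a peak in all 8 libraries were called higher under INX-315 in both lines, where 97.2% and 92.5% of all regions were. Some fits without 1 library called fewer of them, and fewer of all regions. On fold enrichment, 9 of the 15 were called in each line, beside 2793 of 3267 regions in OVCAR-3 and 1914 in Kuramochi. The median height differences of the 15 were 1.31 in OVCAR-3 and 1.48 in Kuramochi, beside 1.78 and 1.52 over all regions. The genes were *CUL1*, *RBX1*, *CDKN1B*, *WEE1*, *PKMYT1*, *CDK1*, *CCND3*, *CDK2AP2*, *SPDYA*, *NPAT*, *FBXO5*, *RB1*, *E2F1*, *E2F2* and *E2F3*. In OVCAR-3 the range was from 1.11 ± 0.43 at *CDK2AP2* to 1.93 ± 0.43 at *CCND3*, and in Kuramochi from 0.87 ± 0.43 at *WEE1* to 2.09 ± 0.43 at *CCND3*. Relative to the library median, 1 of the 15 had a positive treatment difference in OVCAR-3 and 7 in Kuramochi, beside 1497 and 1578 of all 3267 regions. Of these genes *E2F1* alone passed the test, in OVCAR-3 (−0.59 ± 0.19, adjusted p = 0.0487), and it was not called in 6 of the 8 fits that left out 1 library, all but those without a Kuramochi DMSO library (−0.45 to −0.73, adjusted p = 0.0562 to 0.338).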

How the data were processed

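Peak lists of 8 Rb and 2 IgG2a CUT&RUN libraries were analysed. The authors aligned reads to hg38 with Bowtie2 (2.3.4.1) and called peaks per library with MACS2 (2.2.7.1). The deposited narrowPeak columns hold a score, the fold enrichment (a ratio over local background), and −log10 p and q values. From fold and −log10 p, whole fragments at the summit and the local background were recovered, with a single solution for at least 98.8% of peaks in each Rb library, and the most frequent background gave the depth. Peaks of the 8 Rb libraries were merged into 22760 regions, and promoters were taken from GENCODE v44. Heights at 3267 regions were fitted on the log2 scale with limma (3.58.1, R 4.3.3; trend, 4 group means), and called at an adjusted p of 0.05. The script was tested on simulated data. Intervals on heights are exact Poisson and cover counting error only. Alternatives were centring on the library median, fold enrichment, a replicate block, q at most 0.001, no trend, leaving out each library and, for peak presence, the same number of peaks per library, other promoter windows or starts, and summits inside the promoter. Centred fits with the block or without 1 library, and gains of the wider list with lists of equal length, were chosen after seeing the data, as were the 7-letter E2F strings. The members and gene lists were chosen with earlier results of these data known. The named genes were the members, those genes of the wider list that gained or lost a promoter peak or passed the treatment test, genes sharing a promoter or lying within 1 Mb of *CCNE1*, and the 3 genes nearest in pattern to *CDK2* and to *CCNE1*.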

Additional observations from a re-analysis of the deposited data

Results flagged for a closer look

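A region outside all annotated promoters, 19.7 kb after the end of *CCNE1* at chr19:29844048-29845939 (hg38), had a peak in 8 of 8 Rb libraries and in 0 of the IgG2a libraries. Its heights were 103 and 122 in OVCAR-3 under DMSO and 440 and 571 with INX-315, and 38.2 and 79.0 in Kuramochi under DMSO and 178 and 171 with INX-315. The treatment difference was 2.16 on the log2 scale in OVCAR-3 (adjusted p = 1.04e-06) and 1.67 in Kuramochi (adjusted p = 0.000152). The local background there was 7.25 to 7.33 times the genome-wide mean in OVCAR-3 and 2.59 to 2.64 in Kuramochi, and its part in the heights was not tested. A separate called region just before this one, at chr19:29843166-29843814, did overlap an annotated promoter, so a transcript start lies close by.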

How the results depend on the processing

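Summits rested on few fragments, 6 to 7 at *CCNA2* and *FBXW7* in OVCAR-3 DMSO replicate 1, and lower binding was not called. Of the 3267 regions, the treatment was called at 3174 in OVCAR-3 and 3021 in Kuramochi. Centring gave 279 and 196, and fold enrichment gave 1915 in Kuramochi. Leaving out 1 library gave 2790 to 3201 and 2094 to 3112. The difference between the lines was called at 0 regions, and the line under DMSO at 219, with 3 on fold enrichment, 908 after centring and 30 to 552 without 1 library. After centring, leaving out 1 library gave 66 to 313 calls in OVCAR-3, 32 to 326 in Kuramochi, 0 to 21 for the difference and 646 to 827 for the line. Counts of members with peaks stayed within 1.5 times under each alternative tried, but with 5221 peaks in every library the genes with a peak in both INX-315 libraries fell from 29 to 13 (OVCAR-3) and 26 to 14 (Kuramochi) of the 32 further genes, and from 11079 to 4906 and 10622 to 4999 of all genes.

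Centring turned the treatment difference negative at *CDK2* (−0.12 and −0.31 in OVCAR-3 and Kuramochi), *CCNE2* (−0.47 and −0.23), *CDC25A* (−0.49 and −0.21), *SKP2* (−0.41 and −0.28), *CKS1B* (−1.04 and −0.52), *CCNE1* in OVCAR-3 (−0.40) and *FBXW7* in Kuramochi (−0.043), by its construction. The line difference turned at *CCNA2* after centring (0.014; −0.85 to 0.35 without 1 library, −0.46 to 0.49 centred) and at *CDC25A* on fold enrichment (−0.42; −0.34 to 0.54 without 1 library). Without 1 library the centred *FBXW7* value ran from −0.60 to 0.51 in Kuramochi and its line difference from −0.92 to 0.19. The cause was not tested.

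After centring on the library median, the deviations of same-numbered libraries showed almost no correlation (−0.0445 in OVCAR-3 and −0.0098 in Kuramochi). Centring removes a shift shared by a whole library, and the median height was higher in replicate 2 than in replicate 1 in each group. This correlation thus did not test pairing of the uncentred heights. Uncentred, the block lowered the SE at *CDK2* from 0.43 to 0.34 and at *CCNE1* from 0.41 to 0.28 in both lines. With the replicate block, calls numbered 3226 in OVCAR-3, 3140 in Kuramochi and 1 for the difference, and 305, 221 and 0 after centring. *CKS1B* in OVCAR-3 was called with the block (adjusted p = 0.0218).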
